A study of Ovis aries with 4 samples.

Results

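The genes described here build, fold and ship secreted and membrane proteins: they encode the machinery of the endoplasmic reticulum (ER) and of the coated vesicles that travel between the ER and the Golgi apparatus. They were chosen by name, as the rows of the expression table for signal recognition particle proteins and receptor (SRP, SRPR), SEC proteins other than the SEC14-like family, translocon-associated proteins (SSR), signal peptidase subunits (SPCS), protein disulfide isomerases (PDIA, P4HB), calreticulin and calnexin (CALR, CANX), p24 cargo receptors (TMED), KDEL receptors (KDELR), coatomer subunits (COP), SAR1 GTPases and the LMAN and ERGIC proteins of the early secretory route. The names matched 68 of 25197 features. The samples were 4 sheep conceptuses collected on day 14 of pregnancy from 4 Columbia/Rambouillet crossbred ewes, 1 from each, and they form 1 group without a treatment or a second condition. A conceptus at this stage is the embryo with its extraembryonic membranes, an elongating filament made largely of trophectoderm, and the whole tissue flushed from the uterine horn was frozen, so a level is an average over all its cells. Values are RPKM, read numbers per length of transcript and per size of library, from ribosome-depleted total RNA, so levels of different genes are compared per length.

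Proteins bound for secretion are recognised as they leave the ribosome by the signal recognition particle, which docks at its receptor on the ER membrane and hands the nascent chain to the SEC61 channel. Signal peptidase removes the signal sequence, and calnexin, calreticulin and disulfide isomerases fold the chain in the ER lumen. COPII vesicles carry folded cargo toward the Golgi, and COPI vesicles bring escaped ER residents back with the help of KDEL receptors. The ruminant trophectoderm is a secretory epithelium, whose best known product at this age is interferon tau, the signal that maintains the corpus luteum of the ewe.

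Of the markers checked against the tissue label, KRT8, the keratin of simple epithelia, was at 4983 to 8256 RPKM, EPCAM, an epithelial adhesion gene, at 137 to 199 RPKM, and the trophectoderm factors GATA3 and CDX2 at 17.2 to 40.4 and 7.89 to 17.2 RPKM. Of the blood markers, PTPRC, the common leukocyte antigen, was at 0 to 0.04 RPKM and the macrophage gene CD68 at 0.99 to 1.90 RPKM. GATA1, the erythroid factor, was at 3.58, 1.16, 1.22 and 4.71 RPKM in conceptuses 1 to 4. Absolute read numbers are unknown. The most frequent ratio between low values of 2 libraries put conceptuses 2, 3 and 4 at 0.737, 1.04 and 0.667 of the depth of conceptus 1, a rough estimate because only 30% to 32.9% of the 66 to 85 features of those pairs lay near that ratio. No library stood out as a copy of another, with at most 0.157% of values identical between any 2 libraries among features of mean at least 5 RPKM.

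The secretory genes were abundant in every conceptus. Of the 68 genes, 63 averaged 1 RPKM or more, or 92.6%, against 38.1% of all features and 52.9% of the features with a gene symbol. At 5 RPKM or more were 58 genes, or 85.3%, against 25.3% of all features and 35.2% of those with a symbol. At 100 RPKM or more were 19 genes, or 27.9%, against 2.65% and 3.01%. The median of the mean levels was 47.9 RPKM over the 68 genes, 1.43 RPKM over the features with a symbol and 0.128 RPKM over all features. In conceptuses 1 to 4 the summed RPKM of the 68 genes was 8033, 7240, 7970 and 8642. This was 1.61%, 1.59%, 1.69% and 1.65% of the summed RPKM of the library, a mean of 1.64 ± 0.0441% (SD, n = 4), so the share differed little between animals. In these bulk samples more secretory cells and more secretory RNA per cell cannot be told apart.

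**Figure D1:**
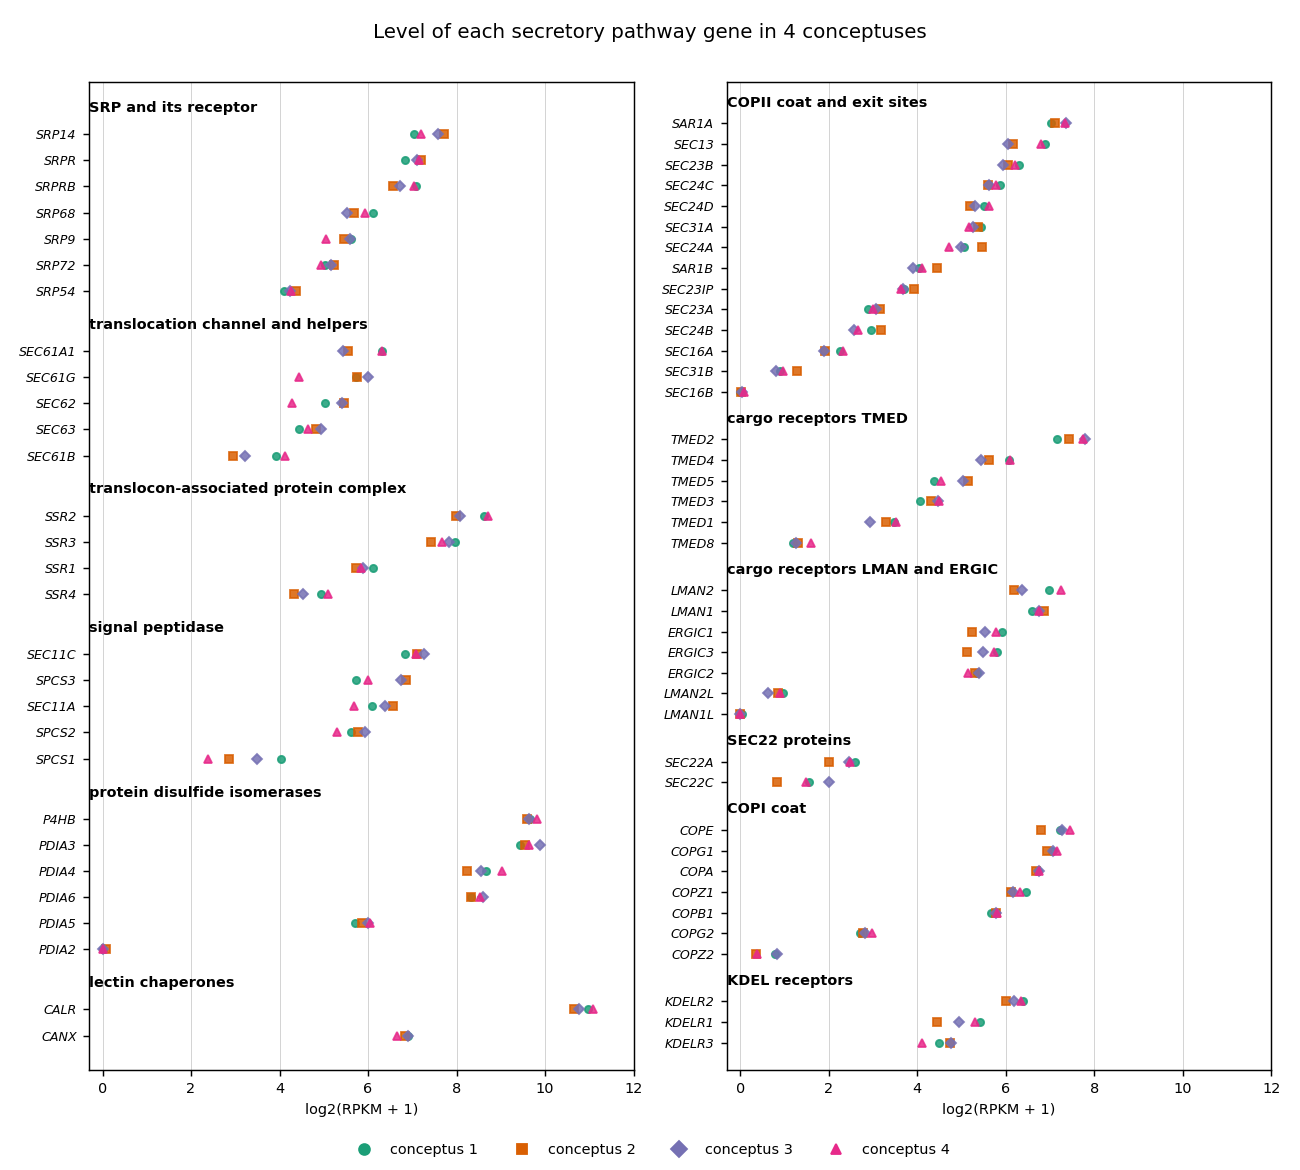
Level of each of the 68 secretory pathway genes on the log2(RPKM + 1) scale, by role, with 1 symbol per conceptus. CALR (1617 to 2183 RPKM) stands highest, the disulfide isomerases P4HB and PDIA3 follow, and SEC16B, PDIA2 and LMAN1L lie at the floor in all 4 conceptuses.

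ER folding factors held most of this summed level. The protein disulfide isomerases made up 30.4% and the lectin chaperones 25.1% of the summed mean level of the 68 genes. CALR, the calcium-binding chaperone that holds newly made glycoproteins in the ER lumen, was at 1999, 1617, 1749 and 2183 RPKM across conceptuses 1 to 4, and alone held 21.9% to 25.3% of the summed level. Its membrane-bound relative CANX was at 119, 113, 118 and 99.5 RPKM. CALR thus exceeded CANX in each conceptus by 14.3 to 22.0 times, and the ratio was highest in conceptus 4, where CALR had its highest and CANX its lowest value.

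Of the 6 disulfide isomerases, 4 were above 100 RPKM. P4HB, the classical disulfide isomerase and also the beta subunit of prolyl 4-hydroxylase, was at 813, 765, 796 and 903 RPKM in conceptuses 1 to 4. PDIA3, the isomerase that works with calnexin and calreticulin on glycoproteins, was at 693, 745, 948 and 796 RPKM. The order of the pair changed between animals, with PDIA3 higher in conceptus 3 and P4HB higher in the others. PDIA4, an isomerase with several thioredoxin domains, was at 406, 299, 371 and 520 RPKM, and PDIA6, which acts with the ER chaperone BiP, was at 322, 320, 384 and 371 RPKM. PDIA4 was higher than PDIA6 in conceptuses 1 and 4 and lower in conceptuses 2 and 3. PDIA5 was lower, at 51.2 to 64.6 RPKM, and PDIA2, an isomerase best known from pancreas, was listed at 0.05 RPKM in conceptus 2 and at 0 in the other conceptuses.

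The 7 genes of targeting to the ER had means from 18.0 RPKM upward, and 3 of them exceeded 100 RPKM. SRP14, which binds the Alu domain of the SRP RNA together with SRP9, was at 130, 211, 189 and 145 RPKM in conceptuses 1 to 4, higher in conceptuses 2 and 3. SRPR, the GTPase subunit of the SRP receptor that is now named SRPRA, was at 113, 145, 137 and 141 RPKM. SRPRB, the membrane-anchored subunit of the same receptor, was at 135, 93.3, 104 and 130 RPKM. The receptor subunits therefore had similar means of 134 ± 14.3 and 116 ± 20.1 RPKM (SD, n = 4), with SRPRB above SRPR in conceptus 1 only. SRP68 (45.2 to 68.1 RPKM), SRP9 (32.2 to 48.3) and SRP72 (29.7 to 36.5) were lower. SRP54, the GTPase that reads the signal sequence, was the lowest at 16.2 to 19.7 RPKM. Between SRP14 and SRP54 the levels differed by 7.99 to 10.7 times in the 4 libraries, although the particle holds both proteins in equal number in textbook models.

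The genes of the SEC61 channel and its helpers were of middle level, and 3 of the 5 differed over 2-fold between animals. SEC61A1, the pore-forming subunit, was at 78.1, 46.0, 42.1 and 78.5 RPKM in conceptuses 1 to 4. SEC61G, a small subunit, was at 52.1, 53.0, 62.7 and 20.9 RPKM, and SEC61B, the small tail-anchored subunit, at 14.2, 6.73, 8.29 and 16.5 RPKM. SEC61A1 and SEC61B were both high in conceptuses 1 and 4, whereas SEC61G was high in conceptuses 1 to 3 and lowest in conceptus 4. SEC61G exceeded SEC61B in each conceptus, but SEC61B reached 0.127 of SEC61G in conceptus 2 and 0.792 of it in conceptus 4. SEC62, a helper for post-translational import, was at 31.6, 42.7, 41.5 and 18.5 RPKM and had its lowest value in conceptus 4 as SEC61G did. SEC63, which recruits BiP to the channel, was at 20.7, 27.4, 29.8 and 23.8 RPKM. SEC62 was above SEC63 in conceptuses 1 to 3 and below it in conceptus 4.

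The translocon-associated protein complex sits beside SEC61 and assists the entry of some signal sequences. SSR2 was at 392, 254, 270 and 415 RPKM across conceptuses 1 to 4, and SSR3 at 250, 170, 226 and 202 RPKM. SSR1, the subunit with the name alpha, was at 68.2, 52.1, 58.1 and 56.3 RPKM, and SSR4 at 29.6, 19.1, 22.1 and 33.4 RPKM. All 4 subunits were lowest in conceptus 2, which held the lowest value for 21 of the 58 secretory genes of mean 5 RPKM or more and for 31.8% of all features of that level. The order of the subunits was the same in the 4 libraries. SSR2 exceeded SSR4 by 12.2 to 13.3 times, a ratio that was nearly constant across animals while the levels were not. This held for that pair and not for all subunits. SSR2 was higher in conceptus 4 than in conceptus 1 (415 against 392 RPKM), whereas SSR3 was lower there (202 against 250 RPKM).

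Signal peptidase genes gave another pattern. SEC11C, a catalytic subunit, was at 114, 137, 153 and 134 RPKM across conceptuses 1 to 4, and the alternative catalytic subunit SEC11A at 67.6, 93.8, 82.6 and 50.4 RPKM. SEC11C exceeded SEC11A in each conceptus. SPCS3, a subunit needed for activity, was at 51.8, 114, 107 and 62.5 RPKM, with its higher values in conceptuses 2 and 3. SPCS2, an accessory subunit, ranged from 38.6 to 59.8 RPKM and was likewise higher in conceptuses 2 and 3. SPCS1, a small accessory subunit, did not share this pattern, at 15.2, 6.29, 10.2 and 4.21 RPKM, which made it the most variable of the 58 genes of mean at least 5 RPKM.

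Summed over their members, the translocon-associated complex and signal peptidase were high in different conceptuses. The 4 SSR genes summed to 739, 495, 576 and 707 RPKM across conceptuses 1 to 4, and the 5 signal peptidase genes to 296, 405, 412 and 289 RPKM. Conceptuses 1 and 4 were thus high for the first sum and low for the second. Not each SSR gene followed its sum: SSR2 and SSR4 had their 2 highest values in conceptuses 1 and 4, SSR1 and SSR3 in conceptuses 1 and 3. The sums describe 4 animals and the contrast between them was not tested. Across all features of mean at least 5 RPKM the 2 highest values also fell most often in conceptuses 1 and 4, for 37.7% of 6374, and for 21 of the 58 secretory genes, or 36.2%. Conceptuses 2 and 3 held the 2 highest values for 17.7% of all such features and for 12 of the 58 genes, 4 of them among the 5 signal peptidase genes and 3 among the 5 genes of the channel and its helpers. By the rough estimate above, relative depth was lowest in conceptuses 4 and 2, and its part in the result was not tested. GATA1 was higher in conceptuses 1 and 4 than in conceptuses 2 and 3, as was PTPRC within its range of 0 to 0.04 RPKM, whereas CD68 was lower in conceptus 4 than in conceptus 2. The part of blood cells in the result was not tested.

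**Figure D2:**
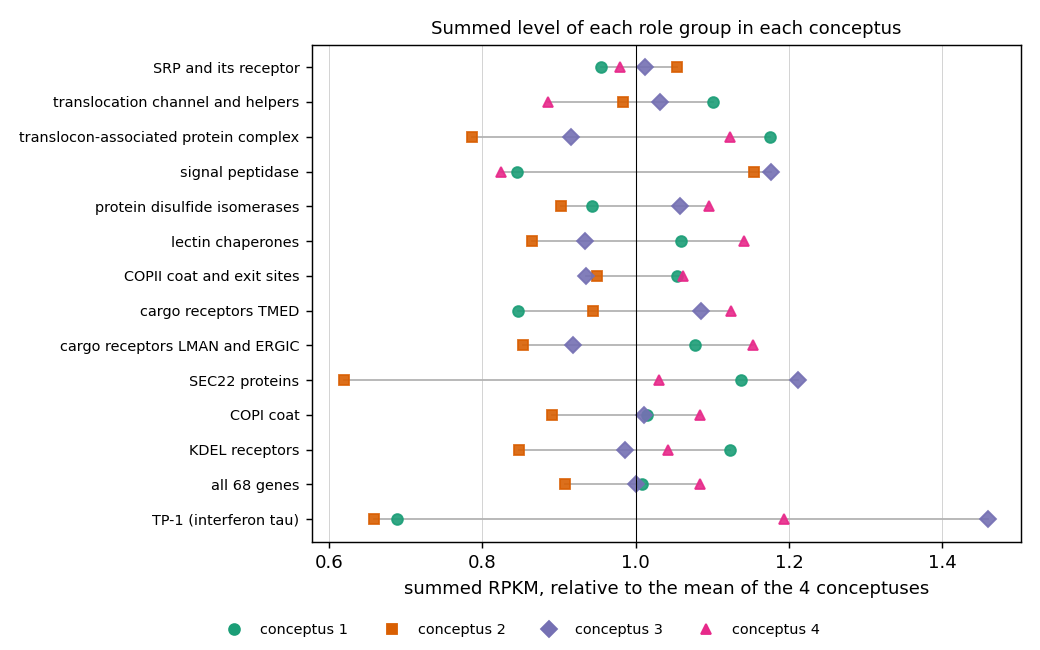
Summed RPKM of each role group in each conceptus, divided by the mean of the 4 conceptuses, with the sum over all 68 genes and the single gene TP-1 for comparison. The translocon-associated complex is high in conceptuses 1 and 4 (739 and 707 RPKM), signal peptidase in conceptuses 2 and 3 (405 and 412 RPKM), and the sum of all genes spans 7240 to 8642 RPKM.

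COPII genes, which form the coat of vesicles leaving the ER, were mostly of middle level, with 11 of 14 averaging 5 RPKM or more. SAR1A, the GTPase that starts coat assembly, was at 129, 137, 163 and 161 RPKM across conceptuses 1 to 4, and its paralogue SAR1B at 15.4, 20.8, 14.0 and 16.2 RPKM. SAR1A exceeded SAR1B by 6.56 to 11.7 times. SEC23B, a subunit of the inner coat, was at 77.3, 65.7, 60.0 and 72.9 RPKM, and its paralogue SEC23A at 6.41, 7.91, 7.39 and 6.94 RPKM. The latter reached only 0.0829 to 0.123 of the former.

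The cargo-binding SEC24 genes form a pair of known subfamilies, A with B and C with D. SEC24C was at 57.5, 47.2, 48.5 and 53.8 RPKM and SEC24D at 44.9, 35.3, 38.8 and 48.0 RPKM in conceptuses 1 to 4, with the first 1.12 to 1.34 times the second. SEC24A was at 32.5, 43.0, 30.6 and 25.4 RPKM and SEC24B at 6.74, 8.04, 4.93 and 5.37 RPKM. SEC24A and SEC24B both had their highest value in conceptus 2, where SEC24C and SEC24D both had their lowest value.

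Of the outer coat, SEC13, which also serves the nuclear pore, was at 118, 70.2, 65.7 and 111 RPKM in conceptuses 1 to 4. SEC31A, its partner in the COPII cage, was steadier at 42.5, 40.1, 37.5 and 34.9 RPKM, so the ratio of SEC13 to SEC31A ranged from 1.75 to 3.18. The paralogue SEC31B was near the floor at 0.87, 1.43, 0.75 and 0.95 RPKM. Of the scaffolds of ER exit sites, SEC16A was at 3.76, 2.76, 2.69 and 4.03 RPKM and SEC16B was listed at 0.06 RPKM or less, with 0 in conceptus 1. SEC23IP, a phospholipase-like partner of SEC23, was at 11.5 to 14.2 RPKM.

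Cargo receptors of both routes were present. TMED2, the only beta member of the p24 family, was at 141, 172, 222 and 215 RPKM in conceptuses 1 to 4, lowest in conceptus 1. TMED4 was at 66.1, 48.2, 42.7 and 66.9 RPKM, and TMED5 at 19.7, 34.2, 32.0 and 22.4 RPKM, high in the conceptuses where TMED4 was low. TMED3 ranged from 15.8 to 21.5 RPKM. TMED1 was at 10.0, 8.81, 6.62 and 10.4 RPKM, and TMED8 at 1.28, 1.46, 1.41 and 2.02 RPKM, the lowest of the family members measured. LMAN1 (ERGIC-53), the lectin that carries glycoproteins such as coagulation factors out of the ER, was at 95.7, 115, 107 and 107 RPKM. LMAN2 (VIP36), a lectin of later compartments, had nearly the same mean but a wider spread, at 124, 71.9, 81.7 and 152 RPKM. LMAN2 was above LMAN1 in conceptuses 1 and 4 and below it in conceptuses 2 and 3.

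Their relatives were near the floor, LMAN2L at 0.96, 0.81, 0.55 and 0.87 RPKM, and LMAN1L at 0.02 RPKM in conceptus 1 and listed at 0 in the others. ERGIC1, a membrane protein that cycles between ER and Golgi, was at 59.1, 36.5, 44.9 and 54.3 RPKM in conceptuses 1 to 4. ERGIC3, of the same family, was at 55.0, 34.0, 43.7 and 52.4 RPKM. The conceptuses had the same order for both genes, with ERGIC1 1.03 to 1.08 times ERGIC3. ERGIC2 was steady at 34.3 to 41.2 RPKM. Both SEC22 genes measured were low, SEC22A at 5.08, 3.04, 4.49 and 4.59 RPKM and SEC22C at 1.95, 0.79, 3 and 1.78 RPKM.

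The coat of the return route held the 3 genes that differed least between animals among the 58 of mean 5 RPKM or more. COPA, the alpha subunit of the coatomer, was at 106, 102, 107 and 106 RPKM in conceptuses 1 to 4, with the highest library only 1.04 times the lowest. A smaller ratio was found in 0.126% of the 6374 features of mean at least 5 RPKM. COPA was picked as the steadiest of 58 genes, which by itself makes this share small. COPB1, the beta subunit, was at 49.9, 54.3, 53.9 and 54.9 RPKM, a ratio of 1.10 between highest and lowest, and COPA was 1.89 to 2.12 times COPB1. COPE, the epsilon subunit, was at 148, 111, 153 and 173 RPKM, lowest in conceptus 2.

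COPG1, a gamma subunit, was at 131, 121, 134 and 142 RPKM, and its paralogue COPG2 at 5.50, 5.79, 6.10 and 6.93 RPKM. COPZ1, a zeta subunit, was at 86.4, 68.5, 70.9 and 79.0 RPKM, and COPZ2 at 0.71, 0.27, 0.77 and 0.30 RPKM. The first gene of each pair prevailed, COPG1 by 20.5 to 23.8 times and COPZ1 by 92.1 to 263 times. ARCN1, the delta subunit, whose name the rule leaves out, was at 128, 169, 151 and 140 RPKM. Taking 1 gene for each of the 6 measured subunits, the highest level was 2.84 to 3.16 times the lowest within a library. For the 2 genes of the COPII cage it was 1.75 to 3.18 times, and for the 3 SEC61 genes 4.75 to 7.87 times. It was 12.2 to 13.3 times for the translocon-associated complex. For signal peptidase it was 7.46 to 31.7 times, but there both alternative catalytic subunits were counted, and SEC11C was the highest gene.

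KDEL receptors capture escaped ER residents by their carboxy-terminal tetrapeptide and return them in COPI vesicles. KDELR2 was at 82.3, 63.6, 71.9 and 80.3 RPKM in conceptuses 1 to 4. KDELR1 was at 41.8, 20.6, 29.8 and 38.3 RPKM, and KDELR3 at 21.4, 25.5, 26.0 and 16.3 RPKM. KDELR2 was the highest of the 3 in each conceptus, while KDELR3 exceeded KDELR1 in conceptus 2 only. The summed level of the receptors, 129 ± 15.0 RPKM (SD, n = 4), stood beside 1887 ± 253 RPKM for CALR and 819 ± 59.1 RPKM for P4HB, both of which carry such a signal in known mammalian proteins.

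Paralogues and partners were compared within each conceptus by log2 ratios on RPKM + 1, with an exact permutation of their signs, two-sided, for the 21 of 27 chosen pairs in which both genes were above 0 in each library and at least 1 had a mean of 1 RPKM or more. In 16 pairs the direction was the same in 4 of 4 conceptuses. Each of these had an exact permutation p = 0.13, the smallest that 4 conceptuses allow, and 0.164 after Benjamini-Hochberg adjustment over the 21 pairs, so none can pass 0.05. The log2 ratio was 5.86 ± 0.431 for LMAN2 over LMAN2L, 5.68 ± 0.252 for COPZ1 over COPZ2, 4.32 ± 0.215 for SEC31A over SEC31B, 4.23 ± 0.0818 for COPG1 over COPG2 and 4.05 ± 0.278 for CALR over CANX (SD, n = 4). For low partners the pseudocount shortens these log2 ratios, so the linear ratios above are larger.

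It was 3.08 ± 0.342 for SAR1A over SAR1B, −3.10 ± 0.258 for SEC23A over SEC23B and 2.22 ± 0.164 for SEC24A over SEC24B. At the other end, ERGIC1 over ERGIC3 had a log2 ratio of 0.073 ± 0.035, small but of 1 direction. In 5 pairs the direction was mixed, with exact permutation p of 0.25 for SEC62 over SEC63, 0.375 for SRPR over SRPRB, 0.5 for PDIA4 over PDIA6, 0.75 for P4HB over PDIA3 and 0.875 for LMAN1 over LMAN2. The size of the last ratio was 0.047 ± 0.570, a mean near 0 with a wide spread. The sources used here do not say how reads matching both of 2 similar paralogues were counted. SEC16A over SEC16B and LMAN1 over LMAN1L hold values of 0 and were not tested, and the 4 pairs with SEC61A2, TMED10, TMED9 or SEC22B were not analysed here.

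**Figure D3:**
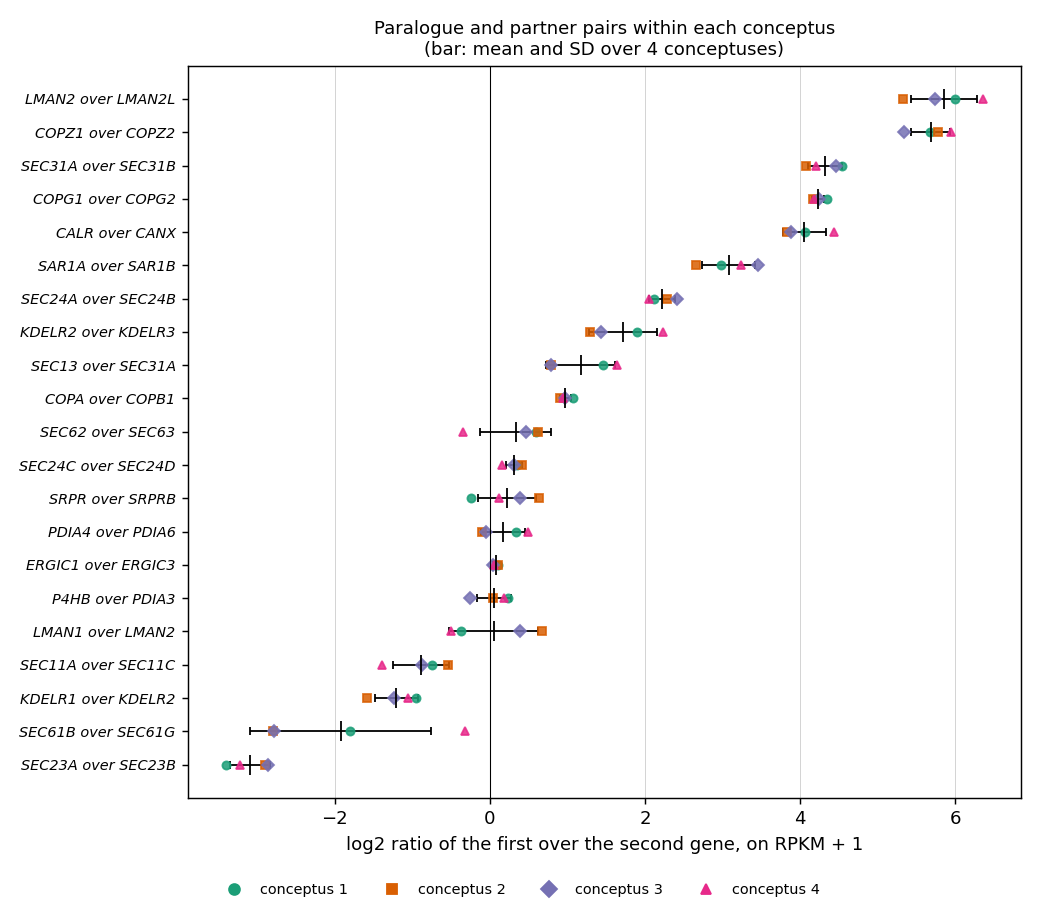
Log2 ratio of the first over the second gene on RPKM + 1 for the 21 tested pairs, 1 symbol per conceptus, with the mean and SD over 4 conceptuses as a bar. LMAN2 over LMAN2L is the largest at 5.86, SEC23A over SEC23B the most negative at −3.10, and the symbols of 5 pairs lie on both sides of 0.

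Most of these genes differed by less than 2 times between animals. Among the 58 genes of mean at least 5 RPKM the median coefficient of variation was 16.7%, against 20.5% over all 6374 features of that level. The genes and the features were not matched for level beyond that cut. A difference of over 1.5 times between the highest and the lowest library was seen in 26 of the 58, or 44.8%, against 58.5% of the features. A difference of over 2 times was seen in 7 of the 58, or 12.1%, against 21.9% of the features. These 7 were SPCS1 (3.62 times), SEC61G (3.01), SEC61B (2.45), SEC62 (2.30), SPCS3 (2.21), LMAN2 (2.11) and KDELR1 (2.03). All but LMAN2 and KDELR1 act at the translocation site. The other genes of the channel, SSR and signal peptidase groups stayed under 2 times, from SSR1 (1.31) to SEC61A1 (1.86). Without conceptus 2 the count was 4 of 58, or 6.90%, against 12.8% of the features, with SEC61B, LMAN2 and KDELR1 no longer in it. Without conceptus 4 it was also 4 of 58, against 16.1% of the features, with SEC61G, SEC62 and LMAN2 no longer in it. The steadiest were COPA (1.04 times), COPB1 (1.10) and COPG1 (1.18), all of the COPI coat.

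**Figure D4:**
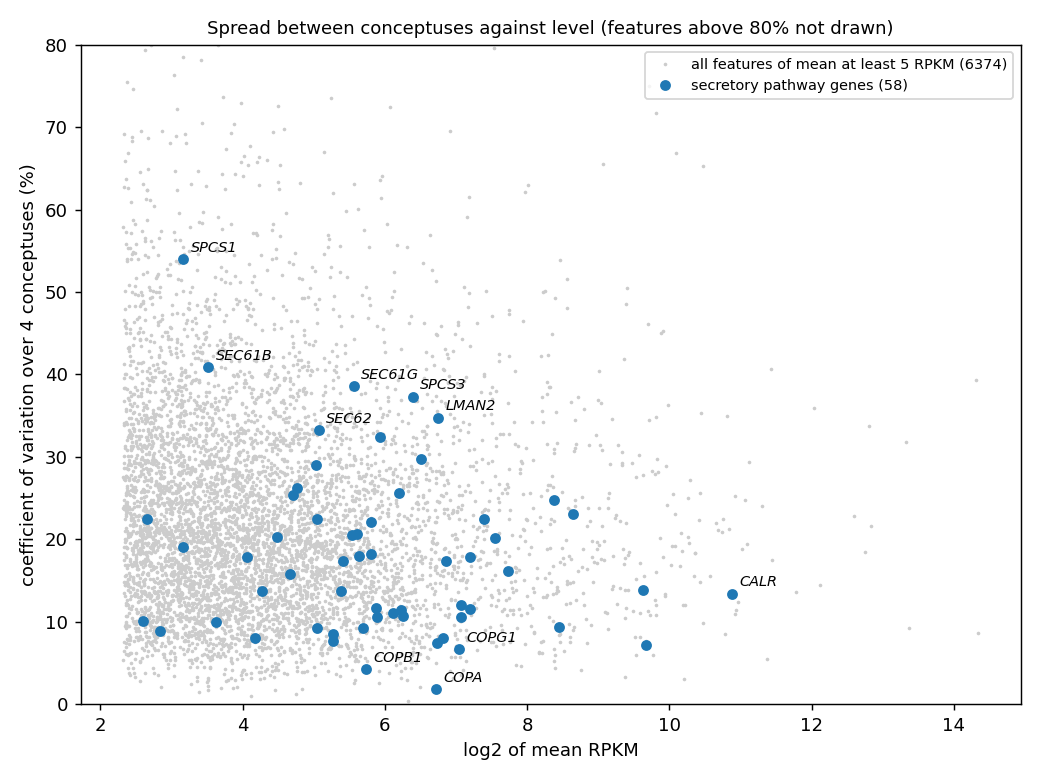
Coefficient of variation over the 4 conceptuses against log2 of the mean RPKM, for features of mean at least 5 RPKM. The 58 secretory genes have a median of 16.7% against 20.5% for all 6374 features, with SPCS1 the most and COPA the least variable of them.

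Whether a gene varied more than features of its level was tested with limma, by an upper-tail F test of its residual variance against the trend over 9602 features of mean at least 1 RPKM. At an adjusted p under 0.05 it called 0 of the 63 secretory genes tested, and 0% of all features. Unadjusted, 2 of the 63 genes, SEC61G and SPCS1, lay under the threshold, against 4.85% of all features, and both had an adjusted p of 0.984 by limma. In simulated data the test found 0 of 100 features shifted by 3 in 1 library on the log2 scale and 100 of 100 shifted by 5. In the run with the shift of 5 it also called 7 features that were not shifted. Differences of the size seen here are thus beyond the test.

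**Figure D5:**
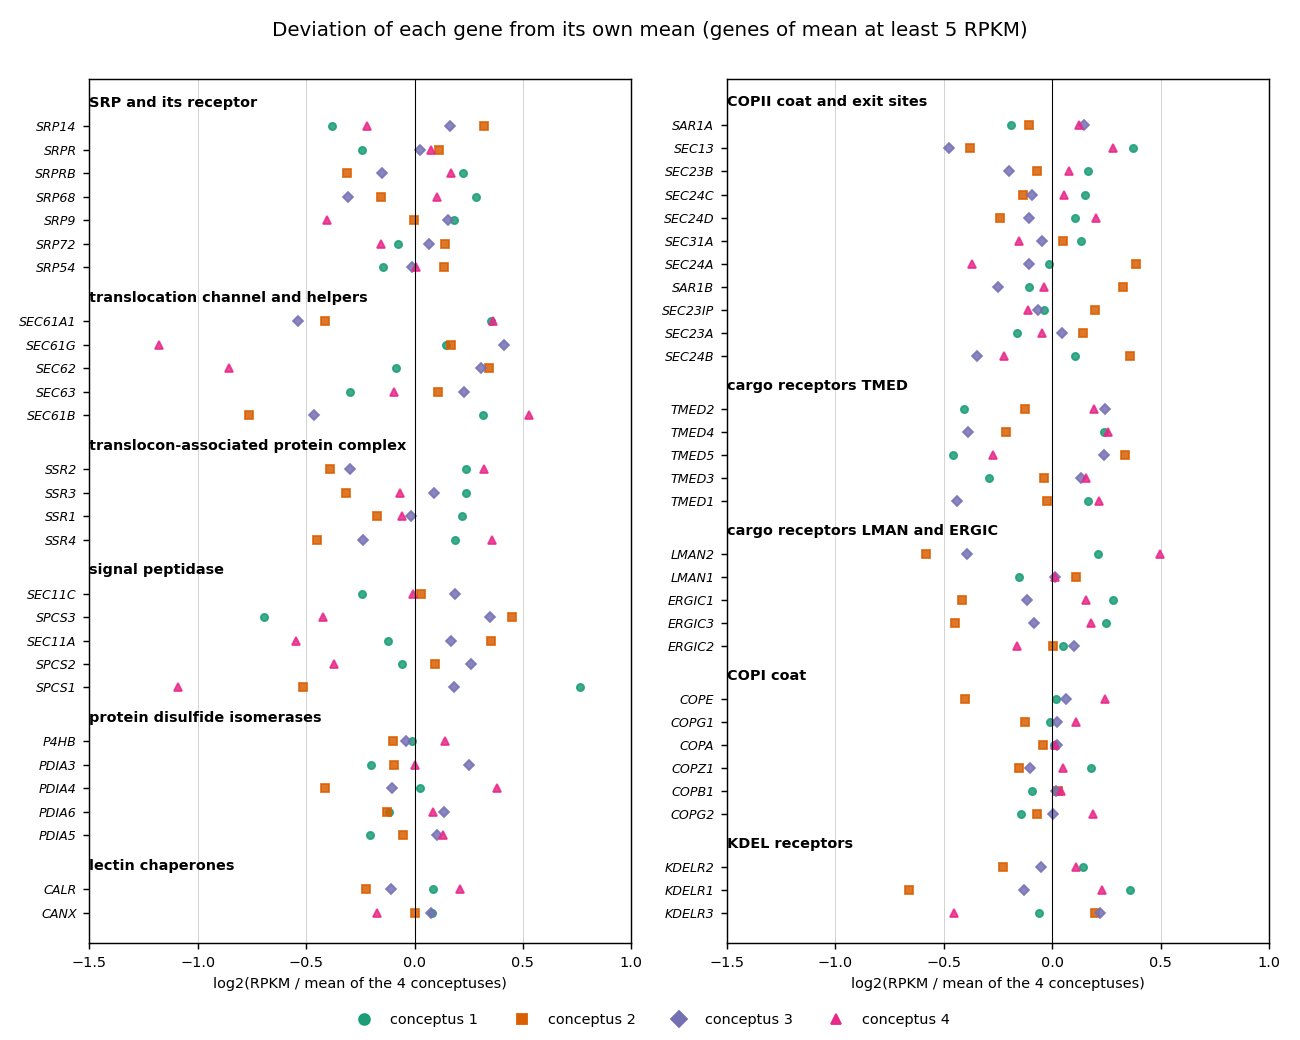
Log2 of each value over the mean of the 4 conceptuses, for the 58 secretory genes of mean at least 5 RPKM, by role. SEC61G and SPCS1 have their lowest values in conceptus 4 (20.9 and 4.21 RPKM), the SSR genes in conceptus 2, and the COPA symbols lie nearly on top of each other (102 to 107 RPKM).

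Around the level of 5 RPKM the list was thin. Just above it lay SPCS1 (mean 8.98 RPKM), TMED1 (8.97), SEC23A (7.16), SEC24B (6.27) and COPG2 (6.08), and just below it SEC22A (4.30), SEC16A (3.31), SEC22C (1.88), TMED8 (1.54) and SEC31B (1.00). The remaining 5 genes under 1 RPKM were LMAN2L, COPZ2, SEC16B, PDIA2 and LMAN1L.

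Other genes of the same pathway, from a list of 110 of which 98 were measured, had a median of 39.6 RPKM. Of the 98, 89 averaged 5 RPKM or more and 24 reached 100 RPKM, against 25.3% and 2.65% of all features. HSPA5 (BiP), the main ER chaperone, stood at 986 ± 130 RPKM and HSP90B1 at 436 ± 72.5 RPKM (SD, n = 4), below CALR. Of ER folding genes, 17 of 19 reached 5 RPKM, among them the cyclophilin PPIB at 540 ± 94.2 RPKM and the stress-induced secreted factor MANF at 533 ± 115 RPKM. All 14 oligosaccharyltransferase and glucosidase-related genes reached 5 RPKM, led by RPN1 at 476 ± 46.0, RPN2 at 402 ± 35.9 and the catalytic subunit STT3A at 264 ± 31.7 RPKM.

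All 17 genes of targeting and insertion outside SEC61 did as well, with the translocating chain protein TRAM1 highest at 157 ± 33.5 RPKM, then EMC3 at 74.7 ± 2.40 and UBL4A at 73.7 ± 17.0 RPKM. Of the ER exit and tethering genes, 11 of 12 reached 5 RPKM. MCFD2, the partner of LMAN1, stood at 127 ± 10.9 RPKM beside 106 ± 7.92 RPKM for LMAN1 itself, followed by YIF1A at 67.8 ± 9.42 and the tether USO1 at 53.2 ± 6.56 RPKM. Of the genes grouped here with the COPI route, 13 of 14 reached it, with the GTPase ARF1 at 720 ± 81.2, ARF4 at 307 ± 40.1 and BCAP31 at 191 ± 35.9 RPKM.

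Among the genes of the unfolded protein response and of ER-associated degradation, 17 of 22 reached 5 RPKM. VCP, the segregase that extracts misfolded proteins, stood at 379 ± 55.5 and the transcription factor ATF4 at 316 ± 50.3 RPKM. HERPUD1, a gene induced by ER stress, was at 126, 81.3, 168 and 252 RPKM in conceptuses 1 to 4, the highest value 3.09 times the lowest. DDIT3, which encodes the stress factor CHOP, was listed at 0 in conceptuses 1 and 2 and at 0.09 and 0.29 RPKM in conceptuses 3 and 4. The median of the 22 genes was 28.0 RPKM. The stress sensors EIF2AK3 at 14.5 ± 1.16 and ERN1 at 4.39 ± 1.00 RPKM lay below it, and ATF6 at 37.7 ± 7.50 RPKM lay above it.

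TP-1, the feature for interferon tau, was at 14004, 13397, 29709 and 24277 RPKM in conceptuses 1 to 4, or 1.74, 1.85, 3.73 and 2.81 times the summed RPKM of all 68 genes. The feature thus ranged 2.22-fold between animals and the summed secretory genes 1.19-fold. These ranges are not of like kind, because a sum of 68 genes evens out differences of single genes. Among the single genes of mean at least 5 RPKM the range reached 3.62-fold, for SPCS1.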

How the data were processed

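Total RNA of 4 conceptuses was depleted of ribosomal RNA and made into strand-specific libraries read on an Ion Proton, per the labels' protocols. The authors deposited a table of 25197 features, and a second one of the 5527 features at 5 RPKM or more in each library, which holds 56 of the 68 genes. Only the second names its unit, RPKM, and the larger table is taken as RPKM because its values for these features are identical. Per the submitters' processing notes, the genome build was Oar_v3.1. No source used here names the aligner, the counter or the annotation, or says if counting used the strand, so overlapping and antisense genes may share reads. Without counts or lengths no counting interval can be given. A value of 0 is given as listed at 0.

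Genes were matched by name. Of the 68 symbols, 65 occur in RefSeq for the newer assembly ARS-UI_Ramb, used for names only. COPB2, SEC22B, SEC61A2, SRP19, TMED6, TMED7 and TMED10 were not analysed here. The members, role groups, pairs, related genes and tests were chosen with earlier results of these data known. Named with values in each library were the 3 highest genes of each role group, both genes of each pair and the genes around 5 RPKM or with extreme ratios; the rest are given by range.

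The computed values are means and SDs of RPKM, log2(RPKM + 1) with a pseudocount of 1, exact sign-flip tests, and limma 3.58.1 in R 4.3.3 with a robust trended prior for 9602 features of mean at least 1 RPKM, adjusted by Benjamini-Hochberg over all of them. The common prior degrees of freedom were used for each feature. The test was tested on simulated data for these features. Alternatives were a pseudocount of 0.1, other filters, median-of-ratios scaling and leaving out each conceptus. Python 3.11.15, numpy 2.4.6, pandas 2.3.3 and matplotlib 3.10.9 were used.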

Additional observations from a re-analysis of the deposited data

Results flagged for a closer look

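Among 97 quartets of values, 1 per conceptus, a single conceptus stood apart in 1, judged by its distance from the nearest other relative to the full range. The log2 ratio of SEC62 over SEC63 was −0.34 in conceptus 4, against 0.46 to 0.62 in the other conceptuses. Chance flags about 1 in 20, or 4.85 of 97, so 1 is fewer than chance gives.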

How the results depend on the processing

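No paired comparison of conditions was possible because the 4 libraries form 1 group. The counts of genes at 5 and 100 RPKM were 58 and 18 to 19 without 1 conceptus or after median-of-ratios scaling. Of 21 pairs, 19 kept their direction without each conceptus in turn and with a pseudocount of 0.1, the alternatives run for pairs. For the 16 pairs with the same direction in 4 of 4 conceptuses these alternatives could not change it. The log2 ratio of P4HB over PDIA3 ranged from −0.011 (without conceptus 1) to 0.15, and that of LMAN1 over LMAN2 from −0.16 (without conceptus 2) to 0.23, with −0.067 without conceptus 3. After leaving out the 10 highest features, the share of summed RPKM was 1.94%, 1.97%, 2.19% and 2.12% in conceptuses 1 to 4. Its mean was 2.05 ± 0.120% (SD, n = 4), higher since the total is smaller, and its SD was above the 0.0441% with all features. With genes under 1 RPKM left out, the median log2 level was 5.72 (5.61 with all genes), for the COPII group 5.08 (4.61) and for the COPI group 6.50 (6.27). With a pseudocount of 0.1 the SEC22 median was 1.56 (1.97). Without a filter the variance test called 3 of the 68 genes, SEC16B, PDIA2 and LMAN1L, against 12.95% of all 25197 features. These 3 genes all had values of 0 and lay at 0.06 RPKM or less. The median coefficient of variation was 13.1% to 15.4% without 1 conceptus, below the 18.2% to 20.2% of all features of that level. In settings chosen after seeing the data, the genes with over 2 times between highest and lowest library numbered 4 to 7 of 58 without 1 conceptus, against 12.8% to 16.1% of all features, and 6 after scaling (7 as deposited), against 20.4%. Scaling brought SEC11A in and left LMAN2 and KDELR1 out. Unknown depth limits values under 1 RPKM.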
